A study of Mus musculus with 14 samples.

Results

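The colony-stimulating factor (CSF) receptors Csf1r, Csf2ra, Csf2rb, Csf2rb2 and Csf3r were described together with the ligand Csf1, the fractalkine receptor Cx3cr1 and the cytokine receptor Flt3. These 8 genes, listed there in capitals as CSF1R, CSF2RA, CSF2RB, CSF2RB2, CSF3R, CSF1, CX3CR1 and FLT3, were taken by name from the 24982 genes of the deposited count table as genes of macrophage identity and maturity. All 8 were among the 13136 genes that passed the filter on low counts. The study asked how loss of CCR2, the chemokine receptor through which blood monocytes reach tissues, acts on colitis and colonic macrophages of mice that lack the IL-10 receptor. All mice were 5 weeks old, of the C57BL/6 strain, and carried Cdcs1, a locus that raises susceptibility to colitis. The genotypes were WT (Cdcs1), IL10RAKO (Cdcs1, Il10ra -/-), DKO (Cdcs1, Il10ra -/-, Ccr2 -/-) and CCR2KO (Cdcs1, Ccr2 -/-). The deletions were germline, so every cell of the animal lacked the gene and not only its macrophages. Live CD45+ CD64+ CD11b+ MHCII+ cells of the colonic and cecal lamina propria that were negative for Ly6C, Ly6G and CD103 were sorted, and 1 library was made per mouse.

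CSF receptors take up the growth factors on which myeloid cells depend. Csf1r binds CSF1 and IL-34 and keeps macrophages alive. Csf2ra binds GM-CSF and signals together with the beta subunit Csf2rb, which also serves the IL-3 and IL-5 receptors, through the kinase JAK2 and the factor STAT5. Csf2rb2 is a second beta subunit of the mouse that serves IL-3 alone. Csf3r binds G-CSF and is best known from neutrophils, and Flt3 drives the development of dendritic cells. In the healthy colon, monocytes that mature into resident macrophages raise Cx3cr1.

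Comparisons used 4 WT, 4 IL10RAKO and 4 DKO mice, with 13085287 to 21216468 counted reads per library. Levels are CPM, the reads of a gene relative to the library's total, after TMM scaling, and values of single mice are given in the order of mouse number, as means ± SD where pooled. The quasi-likelihood test of edgeR was run in 1 fit over all 3 genotypes, and a gene was called at a Benjamini-Hochberg adjusted p under 0.05 over all tested genes. Il10ra averaged 284 CPM in WT mice, against 7.41 CPM in IL10RAKO mice and 5.31 CPM in DKO mice, and Ccr2 averaged 593, 476 and 5.67 CPM, which follows the genotype labels. All 15 macrophage markers of the list were detected in each genotype, but not at like levels. Against WT 4 rose and 2 fell in IL10RAKO mice, and 2 rose and 3 fell in DKO mice. Of all tested genes 15.8% and 18.5% were called. Cd163 was 77.1 to 159 CPM in WT, at most 8.29 CPM in IL10RAKO and at most 2.53 CPM in DKO mice. Cd14 was 1420 to 1820, 3819 to 7903 and 4699 to 6663 CPM in the same order. The fifth WT mouse (mouse 11) is not in the authors' table of pseudocounts and stayed out of the fit, and the single CCR2KO mouse entered no test. Fewer cells of a type and less RNA per cell cannot be told apart in these bulk libraries.

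Csf2rb and Csf2rb2 are neighbours on chromosome 15 of GRCm38. Csf2rb lies on the plus strand from 78325752 to 78353847, and Csf2rb2 lies on the minus strand from 78282507 to 78305721, which leaves 20.0 kb between them. Their coding sequences aligned over 2628 bases, of which 2503 (95.2%) were identical, and the longest identical run was 242 bases. Only coding sequence was compared, 2688 bases of Csf2rb and 2634 of Csf2rb2, whereas their exons hold 7277 and 4740 bases. The 90 coding bases in which they differed most are shown because such differences let a read from coding sequence be assigned to either gene. They are bases 308 to 397 of the Csf2rb coding sequence (chr15:78338897-78338986, plus strand) and bases 311 to 400 of that of Csf2rb2 (chr15:78294345-78294434, minus strand). Capitals mark the 16 positions at which the pair differs.
Csf2rb: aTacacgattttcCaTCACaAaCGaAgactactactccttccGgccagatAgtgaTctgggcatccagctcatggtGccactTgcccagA
Csf2rb2: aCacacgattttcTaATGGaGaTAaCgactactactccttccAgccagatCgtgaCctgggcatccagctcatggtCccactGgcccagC
Of all stretches of 150 coding bases, the read length, 6.5% of those of Csf2rb and 6.64% of those of Csf2rb2 occurred unchanged in the other gene. How the authors counted reads that align to more than 1 place is not given in the sources used here, so values of the 2 genes are uncertain where such reads were split or dropped.

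The beta subunit Csf2rb had the clearest difference between genotypes. The 4 WT mice had 235, 235, 239 and 302 CPM of Csf2rb. The IL10RAKO mice had 557, 688, 557 and 659.5 CPM, and the DKO mice had 464, 662, 751 and 753 CPM. Every mouse that lacked Il10ra was above every WT mouse, also by library totals and with WT mouse 11 included. Csf2rb rose 2.43-fold in IL10RAKO against WT (log2 fold change 1.28, SE 0.175, adjusted p = 1.88e-04). In DKO against WT it rose 2.60-fold (log2 fold change 1.38, SE 0.175, adjusted p = 8.70e-05).

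The other beta subunit, Csf2rb2, was less abundant and more variable. WT mice had 22.7, 37.6, 59.9 and 50.5 CPM, IL10RAKO mice 68.4, 134, 111 and 67.2 CPM, and DKO mice 62.7, 125, 213 and 201 CPM. On this scale all 8 mice without Il10ra lay above the 4 WT mice, by a narrow margin, the lowest of them DKO mouse 3 at 62.7 CPM against the highest WT mouse at 59.9 CPM. By library totals the groups overlapped, since IL10RAKO mice 8 and 1 had 57.1 and 63.5 CPM and DKO mouse 3 had 61.0 CPM, below WT mouse 10 at 68.8 CPM and WT mouse 11 at 87.8 CPM. Csf2rb2 rose 3.52-fold in DKO against WT (log2 fold change 1.82, SE 0.382, adjusted p = 0.00429). In IL10RAKO against WT the log2 fold change of 1.16 (SE 0.376) narrowly missed the threshold, with an adjusted p of 0.0511 in edgeR, and it passed in 6 of the 20 other settings run. When the counts of the 2 beta subunits were added together, an alternative chosen after seeing the data, the pair rose by a log2 fold change of 1.27 in IL10RAKO (adjusted p = 4.58e-04) and 1.45 in DKO (adjusted p = 1.39e-04). Csf2rb2 held 14.2 ± 4.61% of the reads of the pair in WT, 13.3 ± 3.73% in IL10RAKO and 17.7 ± 4.74% in DKO mice (SD, n = 4). These shares did not differ beyond the spread between mice (two-sided exact permutation p = 0.714, 0.343 and 0.171 for IL10RAKO against WT, DKO against WT and DKO against IL10RAKO).

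Csf2ra, the subunit that binds GM-CSF itself, is annotated on chromosome 19 from 61223957 to 61228429. WT mice had 440.4, 417, 525 and 574 CPM, IL10RAKO mice 739.8, 692, 576 and 560.4 CPM, and DKO mice 609.8, 881, 674 and 670.4 CPM. DKO and WT mice did not overlap on this scale, although they did by library totals (lowest DKO mouse 593 CPM, highest WT mouse 659 CPM), whereas 1 of 4 IL10RAKO mice lay below the highest WT mouse. Csf2ra rose 1.45-fold in DKO against WT (log2 fold change 0.54, SE 0.166, adjusted p = 0.0372), a call that was lost in 8 of the 20 other settings run, with adjusted p-values up to 0.231. The IL10RAKO difference had a log2 fold change of 0.39 (95% confidence interval 0.04 to 0.75) and an adjusted p of 0.132.

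Csf3r, the G-CSF receptor (chromosome 4, 126024550 to 126044440), was higher without Il10ra. WT mice had 82.5, 73.4, 117 and 76.0 CPM, IL10RAKO mice 219, 209.9, 132 and 229.7 CPM, and DKO mice 131, 198, 171 and 224 CPM. On this scale no WT mouse reached the lowest mouse of either other genotype. By library totals WT mouse 10, at 135 CPM, lay above IL10RAKO mouse 7 at 128 CPM and DKO mouse 3 at 127.6 CPM. Csf3r rose 2.26-fold in IL10RAKO (log2 fold change 1.18, SE 0.222, adjusted p = 0.00219) and 2.08-fold in DKO (log2 fold change 1.05, SE 0.221, adjusted p = 0.00420) against WT. Because neutrophils carry this receptor, 12 neutrophil markers were followed beside it. Their summed level ranged from 11.3 to 16.2 CPM in WT, from 13.9 to 144 CPM in IL10RAKO and from 84.5 to 111 CPM in DKO mice. The markers entered this sum unequally. Mmp8 alone was 0.938 to 7.26, 7.99 to 38.2 and 22.6 to 53.1 CPM in the same order, whereas Camp, Elane and Mpo were each at most 1.06 CPM. Of the 8 neutrophil markers tested, 5 rose in IL10RAKO and 6 in DKO mice. S100a8, a protein of neutrophils and monocytes, reached at most 0.732 CPM in a WT mouse. It was 2.37, 42.8, 0.809 and 3.76 CPM in IL10RAKO mice and 9.83, 11.0, 21.4 and 18.2 CPM in DKO mice. Ly6g, the neutrophil surface protein against which the cells were gated, was at most 0.747 CPM in any of the 12 mice. IL10RAKO mouse 7 had the lowest Csf3r level of its genotype, 132 CPM, and the lowest neutrophil marker sum, 13.9 CPM, which lies inside the WT range. Its Csf3r level stayed above the highest WT mouse on TMM CPM but not by library totals. Across the 12 libraries, which share the genotype difference, Csf3r and S100a8 had a Pearson r of 0.78 on log2 CPM. With Cxcr2, which was at most 2.32 CPM in any of these mice, r was 0.87. No r with Csf3r was computed for the other neutrophil markers. The part of neutrophil RNA in the Csf3r difference was not tested.

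**Figure D1:**
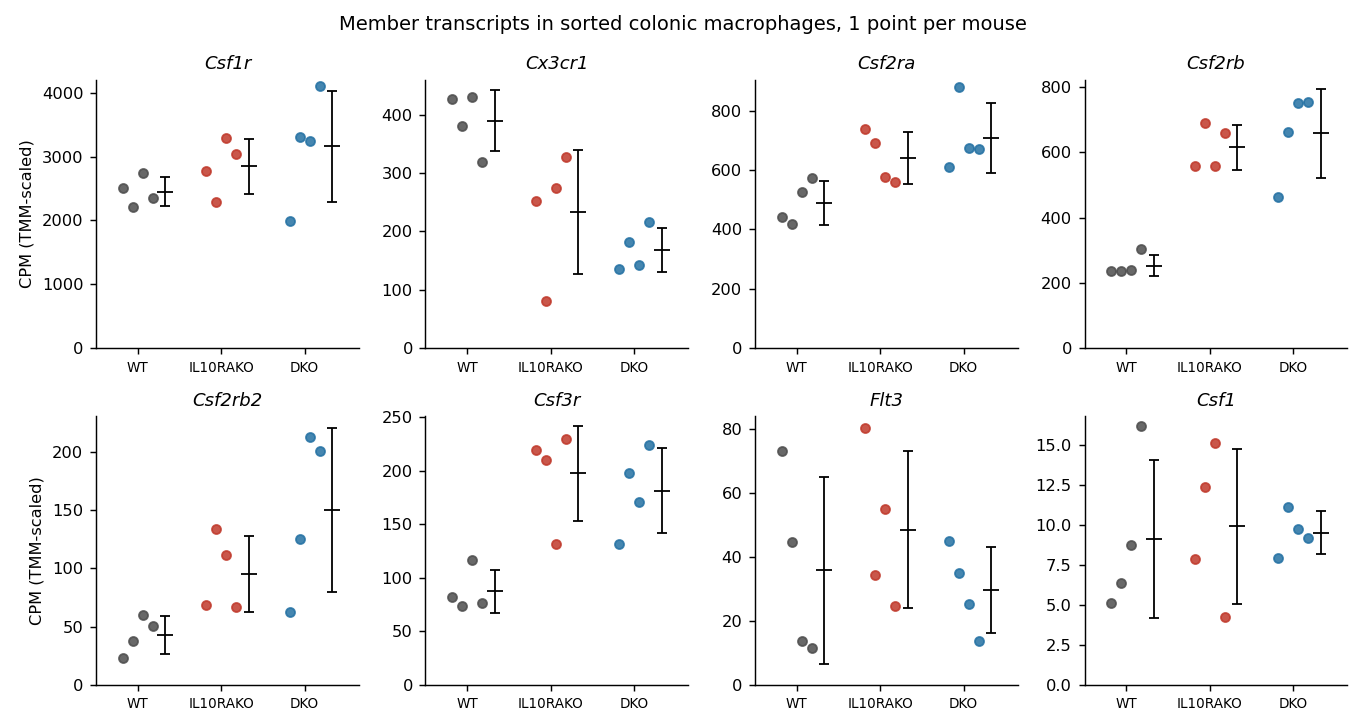
TMM-scaled CPM (linear axes from 0) of the 8 genes, 1 panel per gene and 1 point per mouse, with 4 mice each of WT (grey), IL10RAKO (red) and DKO (blue). Black bars are the mean ± SD. The points of Csf2rb, Csf2rb2 and Csf3r in both knockout genotypes lie above all WT points on this TMM scale, those of Cx3cr1 in DKO mice lie below them, and those of Csf1r, Flt3 and Csf1 overlap.

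Csf1r, the receptor that defines the macrophage lineage (chromosome 18, 61100598 to 61132149), was the most abundant of the 8 transcripts. WT mice had 2509, 2206, 2738 and 2351 CPM, IL10RAKO mice 2779, 2283, 3288 and 3037 CPM, and DKO mice 1998, 3308, 3247 and 4101 CPM. The genotypes overlapped, and both the lowest and the highest of the 12 values came from DKO mice. The log2 fold change against WT was 0.22 (95% confidence interval -0.21 to 0.64, adjusted p = 0.513) in IL10RAKO and 0.37 (-0.06 to 0.79, adjusted p = 0.226) in DKO mice. With library totals in place of TMM the IL10RAKO value turned to -0.10, so no direction is given for Csf1r. Without DKO mouse 3, the lowest of the 12, the DKO value was 0.54 and passed the threshold (adjusted p = 0.0444). Exons of Hmgxb3 on the opposite strand cover 15.1% of the exonic bases of Csf1r, and the strand setting of the counting is not given in the sources used here. At most 1.73% of exonic bases were shared with another gene for any of the other 7 members.

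Cx3cr1, which gut macrophages raise as they mature, was the only member that fell. It lies on chromosome 9 from 119901616 to 120069879, 4.03 Mb from Ccr2. WT mice had 427, 381, 431 and 319 CPM, IL10RAKO mice 252, 81.3, 275 and 327 CPM, and DKO mice 135, 181, 143 and 217 CPM. All DKO mice were below all WT mice, whereas IL10RAKO mouse 8 lay above the lowest WT mouse and IL10RAKO mouse 2 was the lowest of all. Cx3cr1 fell to 0.434 of the WT level in DKO mice (log2 fold change -1.21, SE 0.317, adjusted p = 0.0162). That call was narrowly lost when DKO mouse 3 (log2 fold change -1.10, adjusted p = 0.0521) or DKO mouse 12 (-1.13, adjusted p = 0.0520) was left out. In IL10RAKO mice the log2 fold change was -0.74 (95% confidence interval -1.41 to -0.06, adjusted p = 0.136), and -0.45 (adjusted p = 0.163) without IL10RAKO mouse 2. With library totals in place of TMM it became -1.06 and passed (adjusted p = 0.0277). The summed level of 7 monocyte markers was 226 to 381 CPM in WT, 469 to 1429 CPM in IL10RAKO and 725 to 924 CPM in DKO mice. Of the 7, Ly6c2, Plac8 and Hp rose against WT in both genotypes, none fell, and Chil3, Vcan and Fn1 were among those not called. Fn1 averaged 121 CPM in WT mice, 46.4 CPM in IL10RAKO mice and 86.7 CPM in DKO mice, and Chil3 and Vcan averaged at most 2.04 CPM in any genotype. Ly6c2, which encodes the Ly6C protein that the gate excluded, was 5.80 to 7.64 CPM in WT, 38.4 to 177 CPM in IL10RAKO and 74.9 to 89.0 CPM in DKO mice. The part of less mature cells in the Cx3cr1 difference was not tested.

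Flt3 and Csf1 differed more between mice of a genotype than between genotypes. Flt3 (chromosome 5, 147330741 to 147400489) was 73.4, 44.7, 13.9 and 11.4 CPM in WT, 80.4, 34.3, 54.9 and 24.7 CPM in IL10RAKO and 45.1, 34.9, 25.4 and 13.6 CPM in DKO mice. The log2 fold change against WT was 0.44 (95% confidence interval -0.72 to 1.60, adjusted p = 0.642) in IL10RAKO and -0.27 (-1.43 to 0.89, adjusted p = 0.780) in DKO mice. Without 1 mouse the IL10RAKO value ranged from 0.09 (without IL10RAKO mouse 1) to 1.07 (without WT mouse 4). Over the 12 libraries the Pearson r of Flt3 was 0.81 with the dendritic cell marker Zbtb46, which ranged from 5.22 to 37.5 CPM, and 0.57 with Cd209a, another marker of the list. No correlation with Flt3 was computed for the other markers of this list, and Zbtb46 was named after its values were seen. The summed level of 9 dendritic cell markers was 403 to 1463 CPM in WT, 1630 to 2013 CPM in IL10RAKO and 1119 to 1918 CPM in DKO mice, and in large part came from Ccr7, with means of 506, 1530 and 1357 CPM. Against WT 4 of the 9 rose and 2 fell in IL10RAKO mice (Siglech and Batf3), and 3 rose and 3 fell in DKO mice (Siglech, Batf3 and Cd209a). Markers of B and plasma cells, 6 in all, summed to 458 to 1699 CPM in WT, 343 to 959 CPM in IL10RAKO and 412 to 1694 CPM in DKO mice. None of these 6 was called against WT. The part of dendritic cells or B cells in the Flt3 levels was not tested.

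Csf1 (chromosome 3, 107741048 to 107760469), the ligand of Csf1r, had the lowest mean level of the 8 transcripts in each genotype. It was 5.11, 6.39, 8.74 and 16.2 CPM in WT, 7.86, 12.4, 15.1 and 4.23 CPM in IL10RAKO and 7.95, 11.1, 9.77 and 9.19 CPM in DKO mice, from 64 to 299 reads per library. The log2 fold change was 0.13 (95% confidence interval -0.73 to 0.98, adjusted p = 0.870) in IL10RAKO and 0.07 (-0.79 to 0.92, adjusted p = 0.929) in DKO mice against WT, and its sign changed with the scaling. Fibroblasts also make CSF1, and the summed level of 6 fibroblast markers was 294 to 577 CPM in WT, at most 53.7 CPM in IL10RAKO and at most 67.0 CPM in DKO mice. All 6 fell against WT in both genotypes, and the part of fibroblast RNA in the Csf1 levels was not tested.

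**Figure D2:**
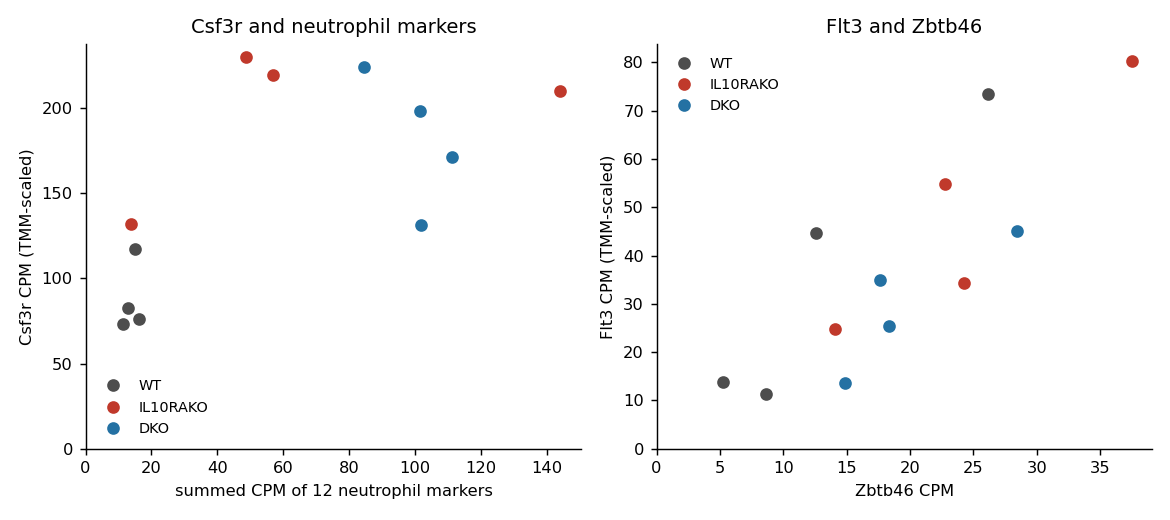
Left, TMM-scaled Csf3r CPM against the summed CPM of 12 neutrophil markers. Right, Flt3 CPM against Zbtb46 CPM. Each point is 1 mouse (WT grey, IL10RAKO red, DKO blue) on linear axes from 0. IL10RAKO mouse 7, at 13.9 CPM of neutrophil markers, has 132 CPM of Csf3r, above the WT mice on this TMM scale only. It lies below WT mouse 10 by library totals (128 against 135 CPM) and per 1000 Csf1r reads (40.2 against 42.8). Flt3 is high in mice of any genotype with high Zbtb46, 1 of 9 dendritic cell markers, chosen after its values were seen.

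Counted over the 8 genes, 2 were called in IL10RAKO against WT, both higher, where 15.8% of all tested genes were called and 8.7% were called higher. In DKO against WT 5 were called, 4 higher and 1 lower, where 18.5% of all tested genes were called, 9.23% higher and 9.22% lower. The mice did not overlap for 3 members in IL10RAKO (18.2% of all genes) and for 5 in DKO mice (22.2% of all genes) on TMM CPM. By library totals Csf2rb2 and Csf3r overlapped in both comparisons and Csf2ra in DKO against WT, and Cx3cr1 no longer overlapped in IL10RAKO against WT. The median log2 fold change of the members was 0.41 in IL10RAKO and 0.45 in DKO mice, beside -0.07 and -0.06 over all tested genes. The 2 comparisons share the WT mice and are not independent of each other.

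DKO and IL10RAKO mice, which differ in Ccr2, were then compared directly. None of the 8 members was called by edgeR (all adjusted p = 1.00) or had an unadjusted p under 0.05, and none was called by DESeq2. Of all tested genes 0.0457% were called and 2.95% had an unadjusted p under 0.05. The mice overlapped for all 8, as they did for all but 2.41% of all genes. Csf2rb differed by a log2 fold change of 0.10, with a 95% confidence interval of -0.27 to 0.46, and Csf3r by -0.13 (-0.59 to 0.34). For Cx3cr1 the value was -0.47 (-1.14 to 0.20, unadjusted p = 0.157), and for Csf2rb2 it was 0.66 (-0.14 to 1.46, unadjusted p = 0.0970). The intervals of Cx3cr1, Csf2rb2 and Flt3 (-0.71, -1.88 to 0.46) include differences of 2-fold. Cx3cr1 passed against WT in DKO mice and not in IL10RAKO mice, but the direct comparison did not show that the 2 genotypes differ.

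**Figure D3:**
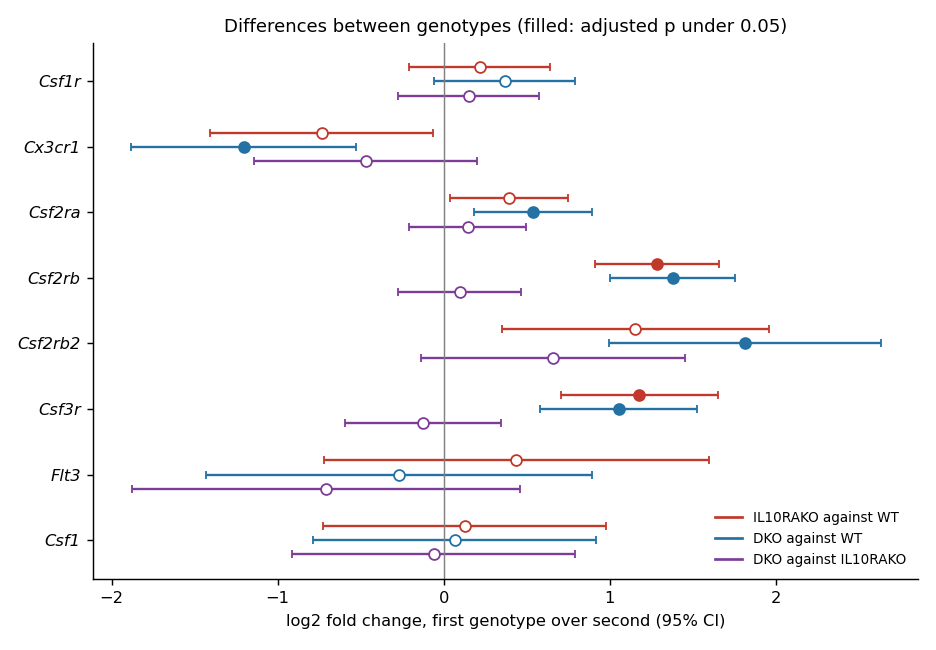
Log2 fold change of each gene with its 95% confidence interval for IL10RAKO against WT (red), DKO against WT (blue) and DKO against IL10RAKO (purple). Filled points passed an adjusted p of 0.05 in edgeR. All filled points lie right of 0 except that of Cx3cr1 in DKO against WT at -1.21, and every purple interval includes 0.

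Levels per kilobase of exon were used to order the genes within a genotype. In WT mice Csf1r came first with a mean of 424 CPM per kb, followed by Csf2ra with 170.4, Cx3cr1 with 86.5, Csf2rb with 34.8, Csf3r with 24.2, Csf2rb2 with 9.01, Flt3 with 5.80 and Csf1 with 1.72 CPM per kb. The ranges of the mice overlapped between neighbours only for Csf2rb with Csf3r, Csf2rb2 with Flt3 and Flt3 with Csf1. In IL10RAKO mice Csf2rb stood behind Csf1r and Csf2ra at 84.6 CPM per kb, ahead of Csf3r at 54.8 and Cx3cr1 at 51.9, and in DKO mice the same order held at 90.3, 50.2 and 37.5 CPM per kb. In both genotypes without Il10ra, Csf3r overlapped with Cx3cr1 and Cx3cr1 with Csf2rb2, whereas Cx3cr1 was above Csf2rb in every WT mouse.

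Reads of each gene per 1000 Csf1r reads of the same library do not depend on how libraries are scaled. Csf2rb had 104 ± 18.3 reads per 1000 Csf1r reads in WT mice, which compares with 222 ± 56.5 in IL10RAKO mice and 212 ± 23.9 in DKO mice (SD, n = 4). Cx3cr1 averaged 159 (range 136 to 173), 79.4 (35.6 to 108) and 54.8 (44.1 to 67.5) in the same order. The WT and IL10RAKO ranges of Cx3cr1 lay apart, although the CPM of these genotypes overlapped. Such a ratio also moves with Csf1r itself. On TMM CPM, IL10RAKO mouse 8 had more Cx3cr1 than WT mouse 13 (327 against 319) and also more Csf1r (3037 against 2351). Csf3r had 35.3 ± 4.99, 71.6 ± 22.1 and 58.3 ± 5.82, and Csf2rb2 averaged 17.4 (range 9.04 to 21.9), 34.8 (22.1 to 58.5) and 45.9 (31.4 to 65.6). In IL10RAKO against WT, 3 of the 7 ratios did not overlap, those of Csf2rb, Csf2rb2 and Cx3cr1, where 16.3% of all genes did not overlap. With WT mouse 11, at 27.1 reads of Csf2rb2 per 1000 Csf1r reads, 2 remained, since that of Csf2rb2 then overlapped. In DKO against WT, 4 of the 7 did not overlap, with Csf3r added, where 17.6% of all genes did not. Each of these had a two-sided exact permutation p of 0.0286, the smallest that 4 mice against 4 allow. Adjusted over the 7 ratios, p was 0.0667 in IL10RAKO and 0.05 in DKO mice, and none was under 0.05. The Csf2ra ratio overlapped between genotypes, at 200.1 ± 30.3, 232 ± 62.4 and 236 ± 62.6. No ratio separated DKO from IL10RAKO mice, where 1.36% of all genes did.

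**Figure D4:**
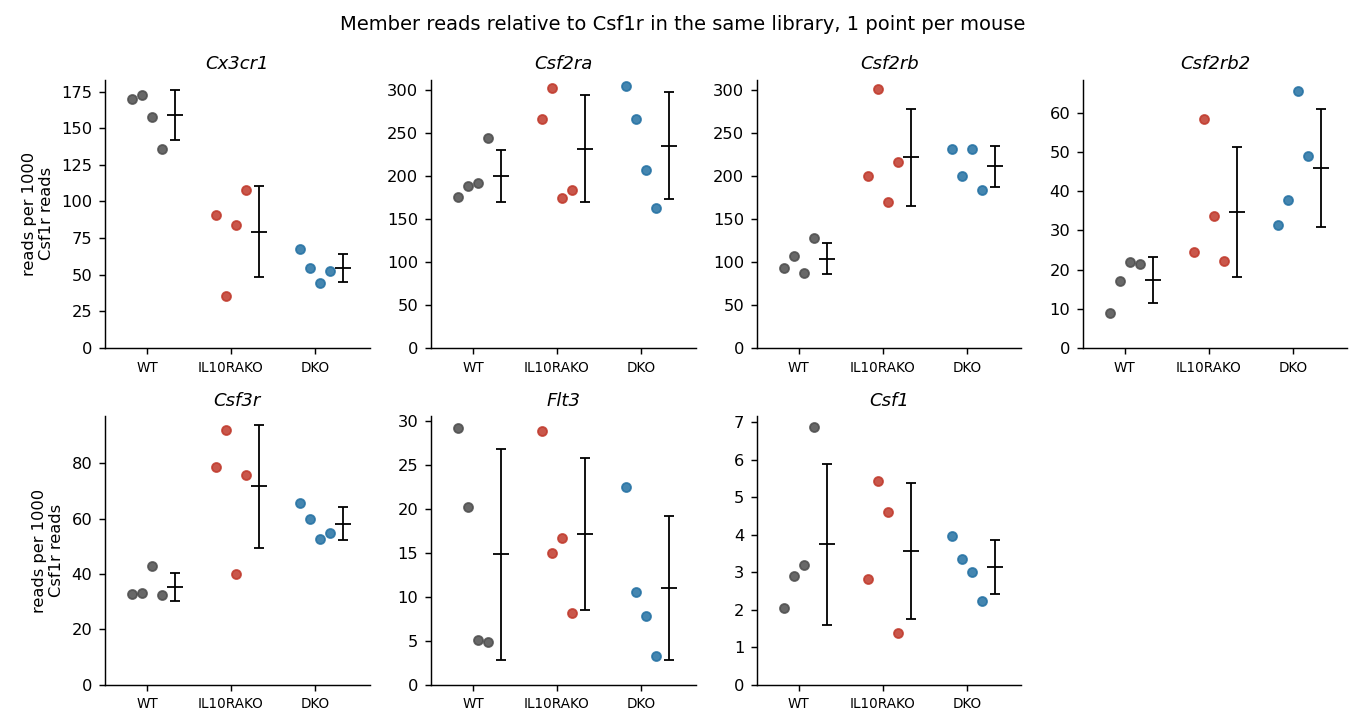
Reads of each gene per 1000 Csf1r reads of the same library (linear axes from 0), 1 point per mouse, with black bars for the mean ± SD of 4 mice. The Cx3cr1 points of WT mice (136 to 173) lie above all others, the Csf2rb points of WT mice (87.2 to 129) lie below all others, and Csf2ra, Flt3 and Csf1 overlap between genotypes.

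Among the 58 other genes of these pathways, 56 were tested. In IL10RAKO against WT 15 rose and 2 fell (30.4%, beside 15.8% of all genes), and in DKO against WT 19 rose and 2 fell (37.5%, beside 18.5%). None was called by edgeR between DKO and IL10RAKO mice.

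Of the 5 other ligands tested, 1 rose and 1 fell in IL10RAKO mice (40%, beside 15.8% of all genes). In DKO mice 1 rose (20%, beside 18.5%). Csf3, which encodes G-CSF, was 1.09 ± 0.793 CPM in WT, from 0 to 28 reads per library, 20.3 ± 12.6 CPM in IL10RAKO and 13.8 ± 5.07 CPM in DKO mice. Its adjusted p against WT was 0.00112 in IL10RAKO (log2 fold change 4.26, SE 0.729) and 0.00235 in DKO mice (log2 fold change 3.70, SE 0.716). Csf2, which encodes GM-CSF, was low throughout, with means of 1.81 CPM in WT mice, 1.81 CPM in IL10RAKO mice and 1.36 CPM in DKO mice, and was not called. Il34, the other ligand of Csf1r, had 0 to 59 reads per WT library, at most 2 per IL10RAKO library and at most 8 per DKO library. It was called lower in IL10RAKO mice (adjusted p = 0.0448), although the mice overlapped at 0 reads. Flt3l was 9.30, 8.45 and 7.10 CPM and Cx3cl1, the ligand of Cx3cr1, 10.6, 6.34 and 4.47 CPM in WT, IL10RAKO and DKO mice, and neither was called. Il3 had 0 reads in every library, and Il5 had at most 19 and was not tested.

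Of 3 other receptors, 1 was called in each comparison with WT (33.3%). Kit, the receptor of stem cell factor, rose 3.80-fold in IL10RAKO (adjusted p = 5.34e-04) and 4.61-fold in DKO mice (adjusted p = 1.70e-04). Mast cells carry Kit, and summed mast cell markers were at most 6.80 CPM in any of the 12 mice. Of these 7 markers 1 passed the filter on low counts, and it was not called. The part of mast cells or of any other cell type in the Kit difference was not tested. Of 24 signalling genes, 3 rose in IL10RAKO mice (12.5% called, beside 15.8% of all genes). Among them were Jak2, the kinase bound to the beta subunit (log2 fold change 1.28), and the PI3-kinase subunit Pik3r1 (0.83). In DKO mice 5 rose and 1 fell (25% called, beside 18.5% of all genes). Jak2 (1.38) and Pik3r1 (0.86) were among those that rose, while Dok2, an inhibitory adaptor, fell (-0.70). Of 6 transcription factors, 3 were called in IL10RAKO (50%) and 2 in DKO mice (33.3%), beside the same shares of all genes. Irf8 (0.81 and 0.87) and Cebpb (1.24 and 1.27) rose in IL10RAKO and DKO mice, and Spi1, which encodes PU.1, rose in IL10RAKO mice (0.59).

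Of the 14 genes known as STAT5 targets and feedback genes, 6 rose in IL10RAKO and 8 in DKO mice, and none fell. These are 42.9% and 57.1%, beside 15.8% and 18.5% of all genes called. In IL10RAKO mice the 4 with the smallest adjusted p were the cytokine Osm (log2 fold change 1.77), the feedback inhibitors Cish (1.97) and Socs1 (2.30) and the chemokine Ccl22 (2.78). In DKO mice they were Socs1 (2.54), Osm (1.72), Cish (1.71) and Socs2 (1.58). Cish, for instance, averaged 33.2 CPM in WT mice, 130.3 CPM in IL10RAKO mice and 109 CPM in DKO mice. The median log2 fold change of the 14 was 0.78 in IL10RAKO and 0.88 in DKO mice, beside -0.07 and -0.06 over all genes. Several of these genes also answer to other cytokines. Of 4 genes of receptor shedding, 2 were called in IL10RAKO (50%) and 3 in DKO mice (75%), beside the same shares of all genes. Rhbdf2, which carries the protease ADAM17 to the cell surface, rose in IL10RAKO (1.17) and DKO mice (1.35), and Adam17 rose in DKO mice (0.62). Timp3, an inhibitor of ADAM17 that fibroblasts also make, fell by 3.87 and 3.58 on the log2 scale, in the same genotypes in which fibroblast markers fell, and the part of fibroblast RNA in it was not tested.

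**Figure D5:**
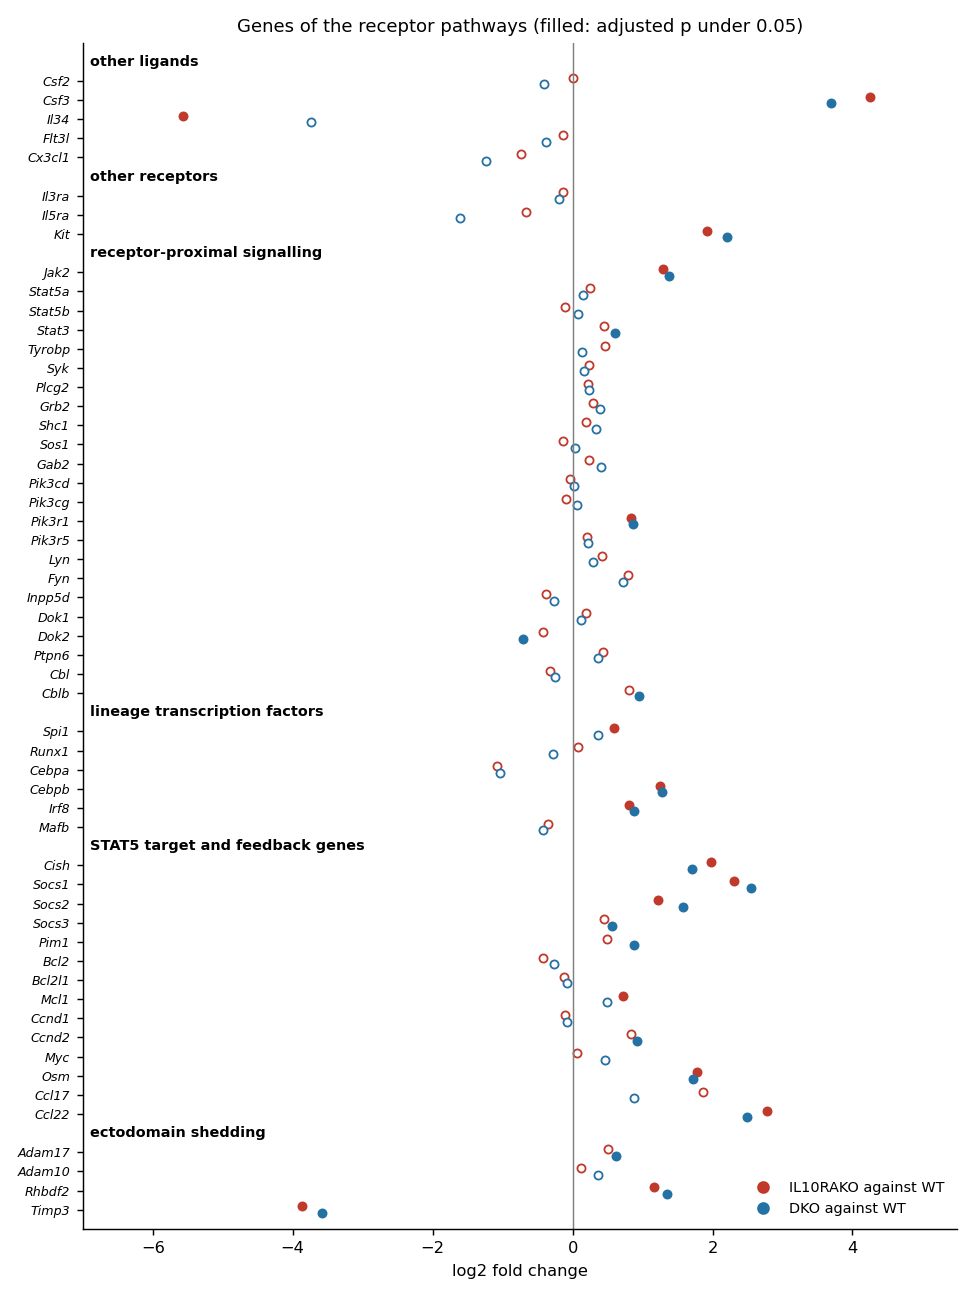
Log2 fold change of 55 of the tested genes of the receptor pathways, grouped by role, for IL10RAKO against WT (red) and DKO against WT (blue). Filled points passed an adjusted p of 0.05 in edgeR. Most filled points lie right of 0, with Csf3 at 4.26 and 3.70, and Il34, Dok2 and Timp3 hold the filled points left of 0.

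Promoters of 6 of the 8 genes were found in RefSeq (GRCm38.p6). Those of Csf1r and Csf2rb were not found and were not searched. The 250 bases before the start of Csf2rb2 are shown because this gene had the highest fold change of the 8 in DKO against WT, and because it held matches to a pair of motifs. They lie at chr15:78305722-78305971 on the minus strand, and capitals mark GAGGAA, the core of PU.1 sites, found on the opposite strand, and the STAT motif TTCNNNGAA.
Csf2rb2 promoter: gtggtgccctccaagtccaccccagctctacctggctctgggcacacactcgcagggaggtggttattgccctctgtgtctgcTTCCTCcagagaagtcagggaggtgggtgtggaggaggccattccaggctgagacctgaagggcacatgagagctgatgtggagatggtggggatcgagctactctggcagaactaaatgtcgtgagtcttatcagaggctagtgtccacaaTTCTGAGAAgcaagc
All 250 bases of each window were searched, including those annotated as exon, which were the whole window of Cx3cr1, 109 bases for Csf3r and 11 for Csf2ra. On both strands, GAGGAA was found in 23.4% of 32536 promoter windows and, among the members, also in those of Csf2ra and Csf3r. TTCNNNGAA was found in 7.04% of all windows and in no other of the 6 members searched. TTGCNNAA, the C/EBP core (9.57% of windows), and the ISRE core (2.98%) were found in none of the 6. A match of letters does not show that a factor binds there.

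Across the 12 libraries Csf2rb moved most closely with Csf3r among the members (Pearson r = 0.89 on log2 CPM), then with Csf2rb2 (0.86) and Csf2ra (0.79), and inversely with Cx3cr1 (-0.70). Csf1r and Cx3cr1 had an r of 0.05. These values share the genotype difference and describe the 12 libraries only. Over all other tested genes, Csf2rb was most like Tnfaip2, Ppt2 and C3 (each 0.98), Csf2rb2 most like Abr (0.98), Trpm2 (0.97) and Atp11a (0.96), and Csf3r most like Hrh2 (0.98), Soat1 and Tmem181a (each 0.97). Cx3cr1 was most like Slc29a1 and Asb2 (each 0.95) and Lrrc4c (0.94). Flt3 was most like Lsp1 and Cldn1 (each 0.94) and Ccm2 (0.92), and Csf1r most like Tmem104, Cyfip1 (each 0.92) and Sgpl1 (0.91). Csf2ra (Inpp5j 0.90, Gm12504 0.89, Wsb2 0.87) and Csf1 (Zfx 0.89, Izumo4 0.88) had weaker neighbours.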

How the data were processed

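The authors sorted the macrophages by flow cytometry, prepared SmartSeq v4 cDNA, sequenced it as paired 150-base reads and aligned it to mm10 with STAR 2.5.1b. They deposited raw counts, the whole numbers of reads that fell on each of 24982 genes, in 14 libraries. The authors also deposited edgeR pseudocounts for 13338 genes and 12 libraries, a score that edgeR derives from the counts at a common library size, and these served only to choose the 12 libraries and as an alternative for the ratios. Annotation, strand setting and handling of reads with several alignments are not given in the sources used here. All per-sample columns were mapped (0 not used).

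Genotypes came from the sample labels, which give no batch, sex or litter. Each library is a separate mouse. The 13136 genes that filterByExpr kept (grouped by genotype, minimum count 10) were scaled with TMM and fitted together with glmQLFit and glmQLFTest (edgeR 4.0.16, R 4.3.3, default deviance), with Benjamini-Hochberg adjustment over all of them. Standard errors and 95% confidence intervals come from the same fit. Ratios to Csf1r used a pseudocount of 0.5, and likeness used log2 CPM with a prior count of 2. A count of 3 reads, 0.141 to 0.229 CPM, was taken as the floor, which covers counting error only. Exon lengths and positions came from GENCODE vM21 (GRCm38) and promoters from RefSeq (GRCm38.p6). Scripts were tested on simulated data. Libraries of a genotype were not duplicates (lowest chi-square per degree of freedom 30.0).

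Members and gene lists were chosen with earlier results of these data known. All members are named, and from each pathway list every other ligand and at most 4 called genes with the smallest adjusted p. Among the genes this rule names and the 3 genes most like each member, 2 are not reported here. S100a8, Ly6g, Fn1, Chil3, Vcan, Ccr7 and Zbtb46, and other single markers, were named from the marker lists after their values were seen. Alternatives were DESeq2 1.42.0, RLE factors, library totals, the bias-adjusted deviance of edgeR 4, other filters, fits of 2 genotypes, WT mouse 11 added, other ratio inputs, leaving out each mouse, and, added after the data were seen, the summed counts of Csf2rb and Csf2rb2. Figures used Python 3.11.15 and matplotlib 3.10.9.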

Additional observations from a re-analysis of the deposited data

Results flagged for a closer look

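Each of the 8 genes was examined in the 4 mice of each genotype and once more in all 5 WT mice. Of these 32 groups, 2 held a mouse far from the others, and chance gives about 5% of groups. The count is near that share, and the groups of 4 and of 5 WT mice share mice, so nothing is concluded about either mouse. On log2 CPM, Csf2rb was 8.24 in WT mouse 13 and 7.88 to 7.90 in the other WT mice. Csf3r was 7.05 in IL10RAKO mouse 7 and 7.71 to 7.84 in the other IL10RAKO mice.

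The single CCR2KO mouse, which entered no comparison, was set beside the 4 WT mice by CPM of library totals. Flt3 was 102 CPM in it, above the WT range of 13.1 to 79.8 CPM, and Cx3cr1 was 518 CPM, above 366 to 495 CPM. With a single mouse these differences were not tested.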

How the results depend on the processing

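Csf2rb and Csf3r against WT in both genotypes, and Csf2rb2 in DKO against WT, stayed called in all 20 other settings run. No called member changed sign. With library totals in place of TMM the median of all genes moved to -0.38 in IL10RAKO and -0.32 in DKO against WT, and 23.8% and 25.9% of called genes were higher, beside 55.1% and 50.0%. Under this scaling uncalled values changed sign for Csf1r in IL10RAKO against WT (-0.10) and for Csf1 in IL10RAKO (-0.17) and DKO against WT (-0.20), and with WT mouse 11 added Flt3 in DKO against WT became 0.053. Leaving out 1 mouse at a time moved Csf1 between -0.14 and 0.56 in IL10RAKO against WT, between -0.12 and 0.50 in DKO against WT and between -0.31 and 0.23 in DKO against IL10RAKO, Flt3 between -0.56 and 0.36 in DKO against WT and between 0.09 and 1.07 in IL10RAKO against WT, Cx3cr1 between -0.93 and -0.45 in IL10RAKO against WT, and Csf3r between -0.26 and 0.0019 in DKO against IL10RAKO. Members called in DKO against WT numbered 3 to 5, with 3 when DKO mouse 12 was left out, which removed Csf2ra and Cx3cr1. In the same fits 1691 to 2995 of all tested genes were called. Without DKO mouse 12 there were 1971 of 13515, beside 2424 of 13136 with all 12 mice. Genes called in DKO against IL10RAKO numbered 24 with DESeq2, beside 6, and 4 to 10 when 1 mouse was left out, with 10 without IL10RAKO mouse 2. Ratios that did not overlap in that comparison numbered 0 to 1. The lowest member count was 64 reads, of Csf1. No paired analysis was possible because each genotype holds different mice and the labels pair none of them.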

Other observations

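The remaining values of the CCR2KO mouse were within the range of the 4 WT mice for Csf2rb (269 CPM of library totals) and Csf2rb2 (27.4 CPM), and below it for Csf1r (2409 CPM), Csf2ra (423 CPM), Csf3r (60.2 CPM) and Csf1 (4.03 CPM). WT mouse 11 had 0 reads of Flt3 and 0 of Csf1, which allows up to 0.247 CPM, whereas its Csf1r (3238 CPM) and Csf2rb2 (87.8 CPM) lay above the range of the other WT mice.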
